A study of Homo sapiens with 8 samples.

Results

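The MAP4K kinases are serine/threonine kinases of the Ste20 family, and they were followed here in L1236, a Hodgkin lymphoma cell line with a B-cell origin and high levels of the microRNA miR-155. The family was selected on a measured value: a probe of MAP4K3 had the highest ratio of Ago2-bound to total RNA in control cells among all probes kept after filtering, and its paralogs were added by name. Its 7 genes are MAP4K1, MAP4K2, MAP4K3, MAP4K5, MAP4K4, MINK1 and TNIK. Through the RefSeq gene table, 14 probes were named for 6 of them, out of 23958 probes for 16557 named genes on the array. No probe was named TNIK, and TNIK was not analysed here.

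L1236 cells were transduced with the empty retroviral vector pMSCV-PIG (EV cells) or with the same vector carrying a miR-155 sponge, a transcript with repeated miR-155 binding sites that competes with natural targets, and the GFP-positive cells were sorted. All 4 RNA samples thus came from transduced, sorted cells of a single line, and untransduced cells are not among them. Total RNA (T) and the RNA brought down with an antibody against Argonaute 2 (IP) were measured from each population, 1 RNA sample per group, each labelled with Cy3 and with Cy5, so that 4 two-colour Agilent arrays gave 8 channels. A single sample per group leaves nothing to test, so differences carry no p-value. An error after ± is the SD over both dye orientations for an IP/T ratio (IP labelled with Cy5 against T with Cy3, or the reverse) and over both dyes for a difference between cell populations. It covers labelling and hybridisation, and not the variation between cultures or precipitations.

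In the classical kinase cascade a MAP4K stands above the MAP3Ks, which phosphorylate MAP2K4 and MAP2K7, the kinases that activate JNK. All members share an N-terminal kinase domain and a C-terminal citron homology domain. In lymphocytes, MAP4K1 restrains antigen receptor signalling and MAP4K3 takes part in NF-κB activation. Several members also phosphorylate LATS1 and LATS2 of the Hippo pathway. Ago2 carries microRNAs and the transcripts that they pair with, so a transcript held by Ago2 has a higher share in IP than in T.

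The sponge was built against the microRNA whose mature strand is shown here. Each EV-to-sponge difference compares a culture without this competitor and a culture with it. The sequence is that of RefSeq on GRCh38.p14 (chr21:25573983-25574006, plus strand), and the capitals mark the seed (bases 2 to 8), the stretch that pairs with target sites.
hsa-miR-155-5p: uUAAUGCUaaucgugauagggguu
Sites for this seed in the MAP4K transcripts were not searched.

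In the total RNA, all 6 Hodgkin cell markers (TNFRSF8, IRF4, TRAF1, CCL17, CD40 and MIR155HG) stood well above background in all 4 T channels. Of the B-lineage markers reported, CD79A and CD79B were so, PAX5 was in 3 channels and MS4A1 in none. Of the markers of other cells, 2 of 4 T-cell genes (CD3E and CD2), 3 of 4 myeloid genes and 2 of 3 epithelial genes were above background, and CD3D, CD3G, LYZ, EPCAM and the fibroblast genes were not. A probe was kept when at least 4 of 8 channels were well above background and when Cy3 and Cy5 differed by no more than 2-fold in each RNA sample, which left 22472 probes. The T sample of sponge cells was measured least well: its Cy5 channel had 54.1% of spots well above background, against 61.0% to 65.7% elsewhere. Of the 3358 probes that the dye criterion removed, 82.7% failed in this sample, against 8.8% to 21.4% in each other sample. A probe can fail in several samples. Values that turn on the Cy5 channel of sponge T are named as such.

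Of the 14 MAP4K probes, 11 were kept, and they cover all 6 genes. Each of the 3 lost probes, A_24_P285522 (MAP4K3), A_32_P203219 (MAP4K5) and A_23_P164307 (MINK1), failed in the T sample of sponge cells only. Of the kept probes, 9 were well above background in all 8 channels, the exceptions being A_23_P154130 (MAP4K3) and A_24_P157165 (MAP4K4). Signals below are log2 quantile-normalised intensities. They compare one probe between channels and not one probe with another, since probes differ in their response.

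MAP4K3, also called GLK, links amino acid supply to MTORC1 and acts downstream of the T-cell receptor. With A_23_P154130 the T signal in EV cells was 5.37 in Cy3 and 5.30 in Cy5, neither well above background, while the IP signal was 11.46 and 11.25. At the scanner these were intensities of 42.9 and 40.4 in T against 3073 and 2712 in IP. In sponge cells T was 6.00 in Cy3, well above background, and 6.23 in Cy5, which was not, and IP was 11.30 and 11.19. The IP and T channels lay far apart in both populations, and the transcript was close to the limit of detection in T.

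The log2 IP/T of this probe was 6.02 ± 0.19 in EV cells, with 5.88 for IP in Cy5 and 6.15 for IP in Cy3, and 5.13 ± 0.08 in sponge cells. It ranked 1 of 22472 in EV cells, which is the value that selected the family, and 3 in sponge cells. The next highest value in EV cells was 5.60 (CD69). Because T gives only a bound in EV cells, the ratio there is stated as at least 4.62-fold, computed after background correction with an offset of 50 and with T set no lower than the dimmest signal well above background. The second MAP4K3 probe, A_24_P285522, had T signals of 5.10 and 5.29 in EV cells, neither well above background, and IP signals of 10.57 in both dyes. In sponge cells its T signal was 5.96 in Cy3, well above background, but 4.37 in Cy5, which was not, and IP was 10.57 and 10.50. This gave a log2 IP/T of 5.38 ± 0.13 for EV cells, bounded at 3.18-fold or more, and 5.37 ± 1.17 in sponge cells. Both MAP4K3 probes thus had high IP and dim T, and their IP signals differed by no more than 0.21 between any dyes of a population. Both bounds are means over Cy3 and Cy5. On their scale the log2 IP/T in EV cells was 2.25 ± 1.41 for A_23_P154130 and 1.67 ± 1.15 for A_24_P285522. Each bound therefore holds for the mean and not for each orientation.

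In total 887 probes passed the detection criterion with IP above background in both EV channels and T in neither. The MAP4K3 probes had the highest bounds of these, at rank 1 and 2, as a description of the values that chose them. Of the 414 that were also kept, 6 had a bound of 2 or more and the median bound was 1.11.

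MAP4K1 (HPK1), the member most restricted to blood cells, lay at the other end of the family. With A_23_P5002 its T signal was 11.84 in Cy3 and 11.72 in Cy5 in EV cells, and 11.71 and 11.80 in sponge cells. IP was 10.33 and 10.49 in EV cells, and 10.24 and 10.41 in sponge cells. Every IP channel was below every T channel. The log2 IP/T was -1.37 ± 0.02 for EV and -1.43 ± 0.19 for sponge cells, so MAP4K1 was depleted from IP by more than 2-fold in both.

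MAP4K2, which acts in TNF receptor signalling, was also lower in IP. A_24_P287075 had T signals of 10.10 and 9.86 in EV cells, against 9.37 and 9.30 in IP. In sponge cells T was 10.07 and 9.85 and IP was 9.38 and 9.25. The log2 IP/T was -0.65 ± 0.23 for EV and -0.65 ± 0.24 for sponge cells, short of 2-fold but with no overlap between T and IP channels.

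MAP4K5 (KHS), which connects TRAF2 to JNK, had 4 probes for 1 transcript accession, all above 0 in log2 IP/T and different in size. A_23_P205646 had 0.57 ± 0.07 in EV cells, from T signals of 9.52 and 9.41 and IP signals of 10.02 and 10.04, and 0.80 ± 0.31 in sponge cells. A_23_P350491 had 1.23 ± 0.46 and 1.41 ± 0.58. A_24_P16997 had 0.37 ± 0.24 and 0.87 ± 0.80, and in EV cells its T signals of 9.19 and 9.67 overlapped its IP signals of 10.22 and 9.39. With Cy5 labels only, its ratio in EV cells was -0.28, so that its sign turned with the dye. The probe that failed the dye criterion, A_32_P203219, had 1.29 ± 0.66 and 2.07 ± 2.40, with T in sponge cells at 7.88 in Cy3 and 5.07 in Cy5. One MAP4K5 probe, A_23_P350491, thus passed 2-fold enrichment among those kept, and its orientations fell on either side of 2-fold in EV cells.

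MAP4K4 (HGK), a kinase that acts in cell motility and in LATS phosphorylation, was close to even between IP and T. A_23_P102192 had a log2 IP/T of 0.45 ± 0.31 for EV and 0.36 ± 0.14 for sponge cells. A_23_P108604 had -0.04 ± 0.25 and -0.08 ± 0.11, and its EV signals overlapped, with 11.63 and 11.48 in T and 11.62 and 11.41 in IP. A_23_P90804 had 0.07 ± 0.22 and -0.09 ± 0.10. A_24_P157165 had 0.54 ± 0.40 and 0.72 ± 0.42, with T not well above background in the Cy5 channel of sponge cells. The signs of A_23_P108604 and A_23_P90804 turned with the normalisation or the dye. None of the 4 MAP4K4 probes reached 2-fold in either direction as a mean over both orientations.

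MINK1, a close relative of MAP4K4 and TNIK, gave different answers with its 2 probes. With A_23_P164313, T was 7.09 and 6.99 in EV cells and IP was 9.65 and 9.36. In sponge cells T was 7.15 and 6.94 and IP was 9.50 and 9.22. All 8 channels were well above background, every IP channel exceeded every T channel, and the log2 ratio was 2.47 ± 0.27 and 2.31 ± 0.34. It was the highest ratio in the family with a T signal detected throughout. A_23_P164307, which failed the dye criterion, had 0.56 ± 0.53 in EV cells, with T signals of 10.83 and 11.31 and IP signals of 11.50 and 11.76, and 0.26 ± 0.78 in sponge cells. The large ratio thus belongs to 1 of 2 MINK1 probes.

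**Figure D1:**
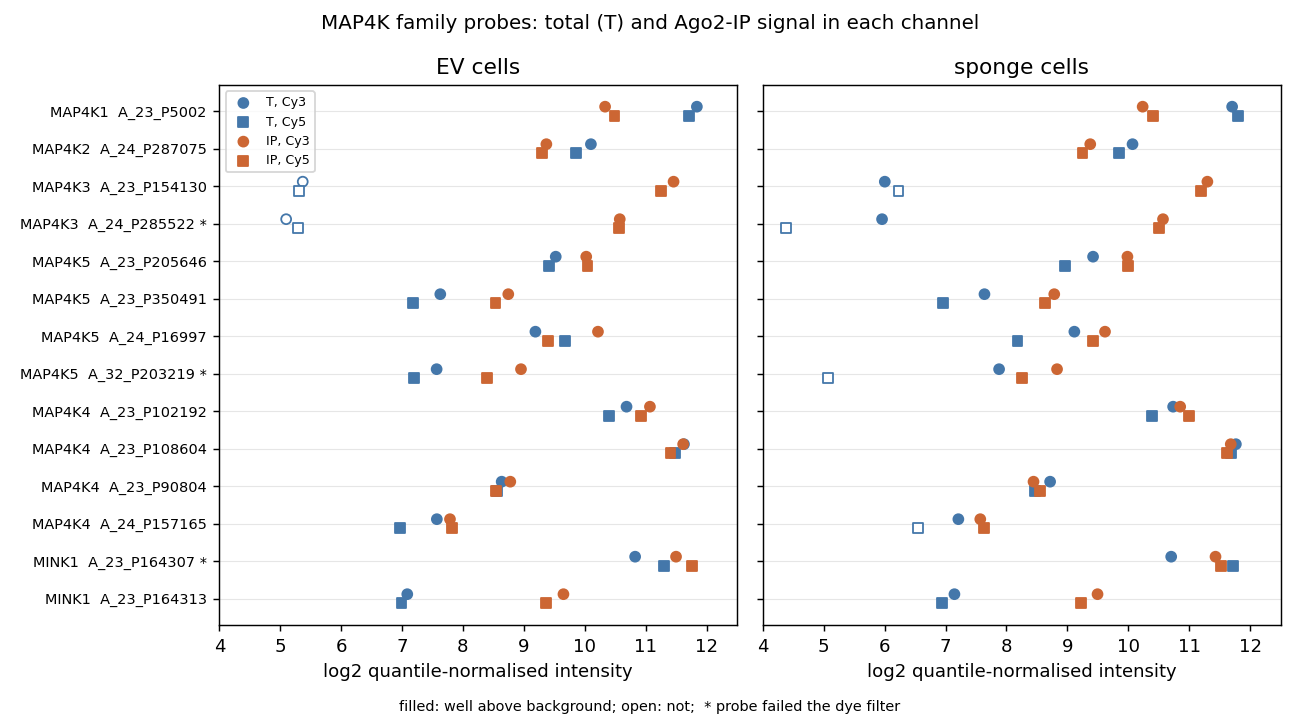
Log2 quantile-normalised intensity (x axis) of the 14 MAP4K family probes (y axis) in T (blue) and IP (orange), in Cy3 (circles) and Cy5 (squares), for EV cells at the left and sponge cells at the right; open symbols were not well above background and asterisks mark probes that failed the dye criterion. MAP4K3 shows T signals between 4.37 and 6.23 and IP signals between 10.50 and 11.46, while MAP4K1 has T above IP in both populations.

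Of the 11 kept probes, 3 reached an IP/T of 2 in EV cells (MAP4K3, MINK1 with A_23_P164313 and MAP4K5 with A_23_P350491), against 17.5% of all kept probes. A single probe, that of MAP4K1, had a T/IP of 2 or more, against 19% of all kept probes. In sponge cells the numbers were again 3 and 1, from the same probes, against 17.5% and 17.8%. The family was picked for its EV ratio, so nothing is read from these counts. The median log2 IP/T was 0.45 (EV) and 0.72 (sponge), against -0.16 and -0.13 over all kept probes. With Cy5 labels only, or on the arrays that carry IP in Cy3 alone, the count for IP/T in sponge cells was 6 instead of 3, both of which use the Cy5 channel of sponge T. Background correction with normexp, followed by loess and Aquantile, ended the 2-fold calls of MINK1, MAP4K5 and MAP4K1. In EV cells MINK1 (A_23_P164313) then had 0.98, MAP4K5 (A_23_P350491) 0.51 and MAP4K1 -0.95. The 1 call left was that of MAP4K3 with A_24_P285522, at 1.67. A_23_P154130 had 2.25 but failed the dye criterion on that scale and was not counted.

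In EV cells the order from high to low was MAP4K3, MINK1 with A_23_P164313, MAP4K5 with A_23_P350491, then a middle group of MAP4K5 and MAP4K4 probes, then MAP4K2 and MAP4K1. The place of MAP4K3 above MINK1 was not settled under every processing, and the T signal of MAP4K3 was not well above background. Without normexp their gap was 3.55, against summed SDs of 0.47. After normexp and quantile normalisation the values were 2.15 ± 0.29 and 0.87 ± 0.05, further apart than their summed SDs. After normexp, loess and Aquantile the values of 2.25 ± 1.41 and 0.98 ± 0.69 differed by less than their summed SDs. The bound of 4.62-fold for MAP4K3 was computed on that last scale. Without normexp, the gap of MINK1 to MAP4K5 was 1.23 and that of MAP4K5 to the middle group 0.66, each larger than the sum of both SDs. Within the middle group, from 0.57 down to -0.04, no neighbours differed by more than their summed SDs. The gaps down to MAP4K2 (0.60) and from MAP4K2 to MAP4K1 (0.72) again exceeded them. In sponge cells the gap of 0.78 between MAP4K2 and MAP4K1 exceeded the summed SDs, whereas the gap of 0.90 between MINK1 and MAP4K5 was within the summed SDs of 0.92. Not all steps in EV cells held after normexp, loess and Aquantile. MINK1 (0.98 ± 0.69) and MAP4K5 with A_23_P350491 (0.51 ± 0.43) then lay within their summed SDs, and MAP4K4 with A_23_P102192 had 0.48 ± 0.25. After normexp and quantile normalisation these MAP4K5 and MAP4K4 probes had 0.39 ± 0.07 and 0.35 ± 0.08, so MAP4K5 did not stand apart from the middle group.

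**Figure D2:**
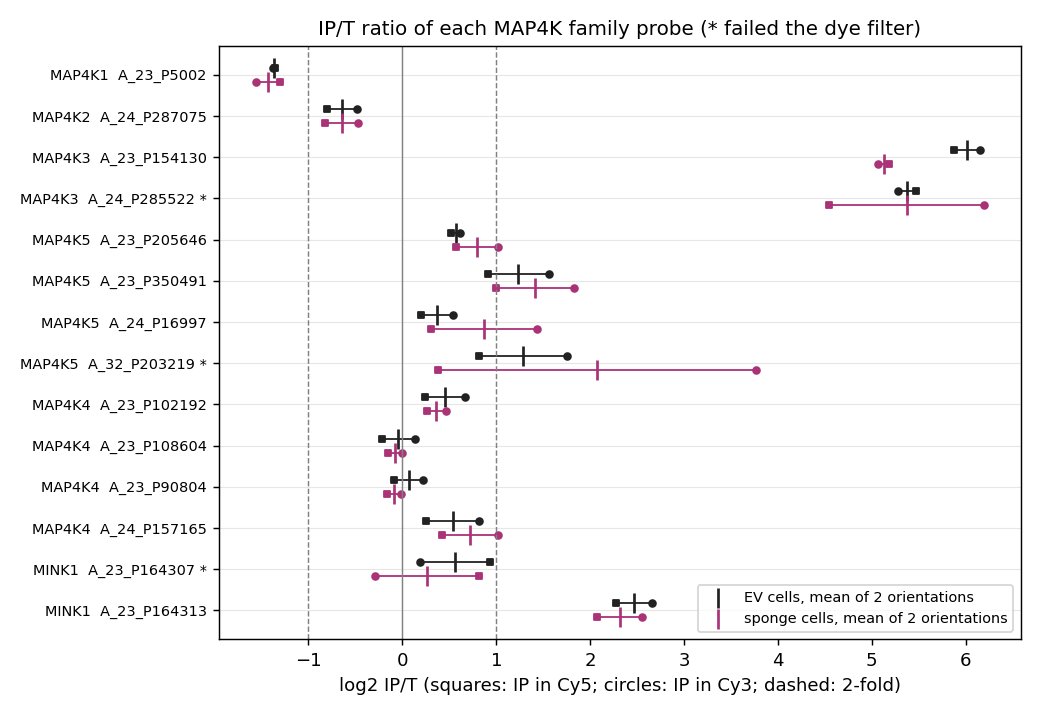
Log2 IP/T (x axis) of each MAP4K family probe (y axis) in EV cells (black) and sponge cells (purple); squares are the arrays with IP in Cy5, circles those with IP in Cy3, the upright bar is their mean and dashed lines mark 2-fold. The mean runs from -1.43 for MAP4K1 to 6.02 for MAP4K3, and the widest gap between orientations is that of MAP4K5 with A_32_P203219 in sponge cells.

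To ask whether the sponge moved these transcripts, sponge cells were set against EV cells in each fraction. None of the 11 kept probes changed 2-fold or more in T with both dyes averaged, where 0.409% of all kept probes did, and none did in IP, where 0.151% did. In RNA of a whole population, more RNA per cell and more cells with the transcript cannot be told apart. The sponge also cannot be told apart from the single culture that carried it. The study proposes that the sponge left part of the abundant miR-155 in this line unbound.

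In IP, 9 of the 11 kept probes were lower in sponge cells, as were 48.9% of all kept probes, with a median log2 difference of -0.09 and a range from -0.28 to 0.14. The difference was below 0 in both dyes for 5 (35.7% of all kept probes). MINK1 with A_23_P164313 changed by -0.15 ± 0.01, MAP4K4 with A_24_P157165 by -0.20 ± 0.02, MAP4K1 by -0.09 ± 0.01 and MAP4K3 by -0.11 ± 0.07. MAP4K4 with A_23_P108604 was higher, by 0.14 ± 0.10, and MAP4K5 with A_23_P350491 by 0.07 ± 0.04. MAP4K2 was near 0, with -0.02 ± 0.04. In all, the difference exceeded its SD over dyes for 7 of the 11 kept probes, as it did for 64.6% of all kept probes. The Ago2-bound signal of this family thus differed between the populations by far less than 2-fold, and the second MAP4K3 probe, with -0.03 ± 0.04, did not differ beyond its spread.

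In T, MAP4K3 with A_23_P154130 was 0.78 ± 0.21 higher in sponge cells on the log2 scale, by 0.63 in Cy3 and by 0.92 in Cy5. As T stood well above background in neither EV channel and in 1 of 2 sponge channels, no fold change is given, and after normexp and quantile normalisation the log2 difference was 0.054. Among the 414 kept probes with T equally undetected in EV cells, the same difference had an SD of 0.58, against 0.21 among kept probes with all 4 T channels detected, and 44 of them (10.6%) rose by as much or more. The second MAP4K3 probe moved in opposite directions in its dyes, with 0.86 in Cy3 and -0.92 in Cy5. The log2 IP/T values of A_23_P154130 differed by -0.89 ± 0.28 between the populations, and 38 of the 414 probes (9.18%) had a difference as low or lower. After normexp and quantile normalisation the values were 2.15 (EV) and 2.06 (sponge), so that little of the difference remained. The IP/T of A_24_P285522 was 5.38 and 5.37.

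The other members changed little in T. MAP4K1 changed by -0.03 ± 0.15, MAP4K2 by -0.02 ± 0.02 and MINK1 with A_23_P164313 by 0.01 ± 0.08. MAP4K4 split by probe, with 0.17 ± 0.05 for A_23_P108604, -0.39 ± 0.04 for A_24_P157165 and values within the spread for A_23_P102192 (0.02 ± 0.04) and A_23_P90804 (-0.01 ± 0.12). Little of this split remained after normexp. A_23_P108604 had 0.03 with loess and Aquantile and 0.01 with quantile normalisation, and A_24_P157165 had -0.03 and -0.06. The 3 kept MAP4K5 probes were all lower, by -0.27 ± 0.24, -0.11 ± 0.17 and -0.78 ± 1.00. The last of these, A_24_P16997, had -0.07 in Cy3 and -1.49 in Cy5, and with Cy5 labels only it was the 1 kept member probe past 2-fold in T. The Cy5 channel of sponge T, the dimmest of the 8, took part in each of these Cy5 values, and its part in them was not tested.

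**Figure D3:**
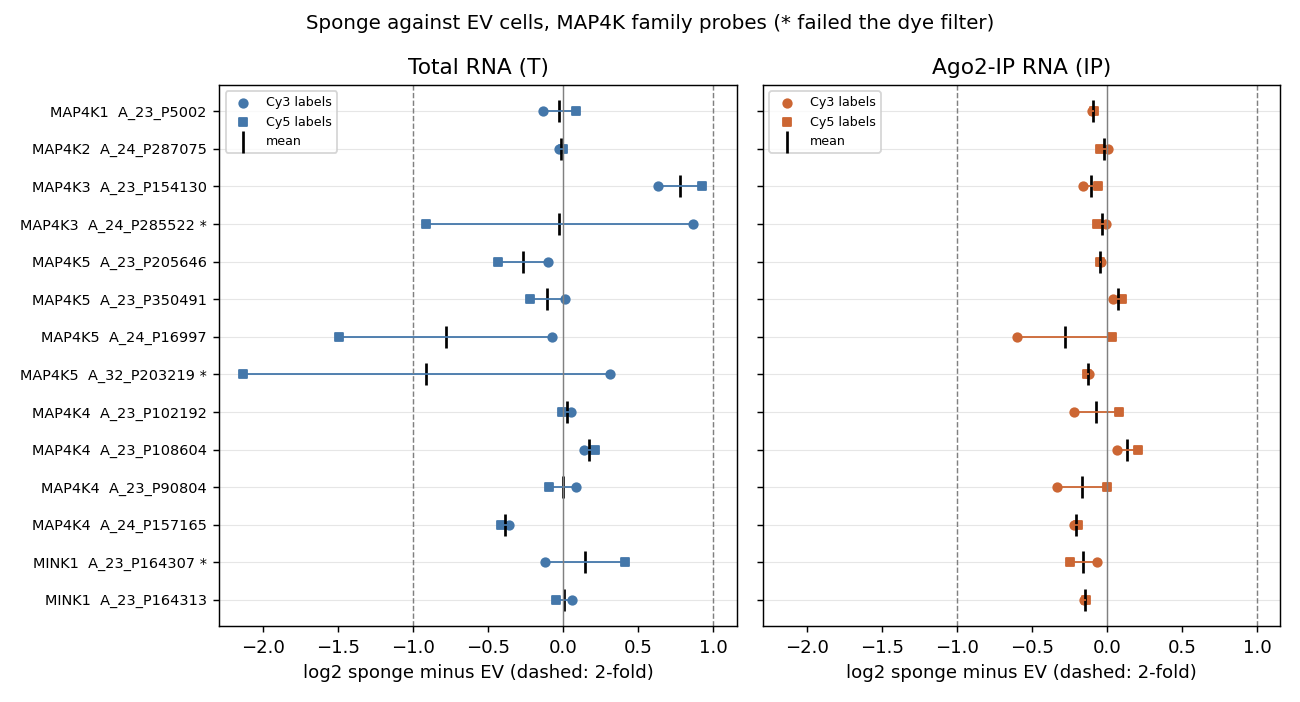
Log2 difference between sponge and EV cells (x axis) in T at the left and in IP at the right for each MAP4K family probe (y axis), in Cy3 (circles) and Cy5 (squares), with the mean as an upright bar and dashed lines at 2-fold. The kept probes have means between -0.28 and 0.14 in IP, and in T the wide pairs belong to MAP4K3 with A_24_P285522 and to MAP4K5 with A_24_P16997 and A_32_P203219.

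The genes whose pattern over the 8 channels was nearest to that of MAP4K3 (A_23_P154130), by Euclidean distance after each probe was centred on its mean, were CFL2 (0.82), CD69 (0.88), ZNF254 (1.02), SGK1 (1.07) and BTG2 (1.18). CFL2 encodes a cofilin of the actin cytoskeleton, CD69 a lymphocyte activation antigen, SGK1 a serum-induced kinase and BTG2 an antiproliferative factor. CFL2 had a log2 IP/T of 5.43 ± 0.13 for EV and 4.84 ± 0.34 for sponge cells, CD69 5.60 ± 0.12 and 5.62 ± 0.41, and ZNF254 5.20 ± 0.09 and 4.92 ± 0.13. SGK1 (A_23_P19673) had 5.02 ± 0.21 and 4.98 ± 0.05, and BTG2 (A_23_P62901) 5.00 ± 0.06 and 4.87 ± 0.29. T was well above background in both EV channels for 4 of the 5 genes, and in no channel for CD69.

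The pathways around the MAP4Ks were described with 7 lists, each gene at its brightest kept probe. Over all 11204 named genes measured this way, 18.1% had an IP/T of 2 or more in EV cells, 18.8% a T/IP of 2 or more, and the median log2 IP/T was -0.16. Background correction with normexp, followed by loess and Aquantile, moved that median to -0.01 and the calls from 2033 up and 2101 down to 1327 and 603.

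In the JNK cascade below the MAP4Ks, 8 of 16 genes had an IP/T of 2 or more in EV cells and none a T/IP of 2 or more, with a median of 0.78. After either normexp setting 5 of 16 had, with a median of 0.38 after normexp, loess and Aquantile. The highest was DUSP10, a phosphatase of JNK and p38, with 2.72 ± 0.01. MAP3K13, counted among the 8, had T in no channel above background and is bounded at 1.17-fold or more, so that it is not shown to reach 2-fold, and MAP3K10 had 1.77 ± 0.24. At the lower end, MAP3K20 had -0.65 ± 0.01 and MAP3K4 -0.58 ± 0.24.

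Of the 17 other Ste20 kinases, 3 had an IP/T of 2 or more and 3 a T/IP of 2 or more. Their median was -0.13, which turned to 0.02 after normexp, loess and Aquantile. After either normexp setting both counts were 2. TAOK1, a kinase of the p38 and Hippo pathways, had 1.72 ± 0.02. STK25 had -1.70 ± 0.09, and MYO3A, a kinase fused to a myosin motor, had -2.76 ± 0.04. Kinases related to the MAP4Ks thus lay on both sides of 0, as did the MAP4Ks themselves.

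Among the Hippo pathway genes, 4 of 14 had an IP/T of 2 or more and none the reverse, with a median of 0.66 (0.42 after normexp, loess and Aquantile). The count fell to 3 after normexp, loess and Aquantile and to 1 of 14 (7.14%) after normexp and quantile normalisation, where 10.2% of all named genes passed. LATS1, a kinase that MAP4Ks phosphorylate, had 3.25 ± 0.15, MOB1A, its coactivator, 2.58 ± 0.07, and LATS2 1.67 ± 0.42. The lowest was AMOTL1 with -0.86 ± 0.28. The STRIPAK complex brings the phosphatase PP2A to Ste20 kinases. Of its 14 genes, 6 had an IP/T of 2 or more and none the reverse, with a median of 0.73 (0.65). The count fell to 5 after normexp, loess and Aquantile and to 4 after normexp and quantile normalisation. STRIP2 had 3.28 ± 0.05, the catalytic subunit PPP2CB 2.54 ± 0.32 and the scaffold STRN3 1.94 ± 0.07, while the scaffold subunit PPP2R1A had -0.56 ± 0.03.

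Of the 18 genes of amino acid sensing and MTORC1, 4 had an IP/T of 2 or more and 2 a T/IP of 2 or more, with a median of 0.32 (0.35 after normexp, loess and Aquantile). AKT1S1, an inhibitory subunit of MTORC1, had 3.01 ± 0.49, RHEB, the GTPase that activates it, 2.35 ± 0.13, and RRAGA, a Rag GTPase, 2.04 ± 0.35. The core subunits MLST8 and RPTOR had -1.74 ± 0.16 and -1.14 ± 0.08. After either normexp setting 4 genes again had an IP/T of 2 or more and none a T/IP of 2 or more.

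Of the 10 kept antigen receptor adaptors of MAP4K1, 3 had an IP/T of 2 or more and 1 a T/IP of 2 or more. Their median was -0.07, which turned to 0.09 after normexp, loess and Aquantile. The counts were then 2 and 0, and after normexp and quantile normalisation they were 2 and 1. The adaptor CRK had 2.64 ± 0.02, BCL10, a subunit of the complex that activates NF-κB, 1.97 ± 0.46 and NCK1 1.03 ± 0.19. DBNL, an actin-binding adaptor of MAP4K1, had -1.53 ± 0.03. Of the 9 partners of the TNIK subfamily, 4 had an IP/T of 2 or more and none the reverse, with a median of 0.69, but 1 of 9 after normexp, loess and Aquantile, with a median of 0.30. CTNNB1, the β-catenin gene, had 2.10 ± 0.17 and RAP2C, a small GTPase, 1.47 ± 0.49. TCF7L2, the transcription factor that TNIK binds and 1 of the 4, had T in no channel above background and is bounded at 1.20-fold or more. No gene of the 7 lists changed 2-fold or more between sponge and EV cells in T or in IP. Such changes were rare throughout, with 35 of all 11204 named genes in T and 17 in IP. The lowest difference in IP was -0.96 ± 0.22, for a gene of the Hippo list. The lowest difference in T was that of LATS2 (-0.80 ± 0.10), with T detected in 1 of 2 sponge channels.

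**Figure D4:**
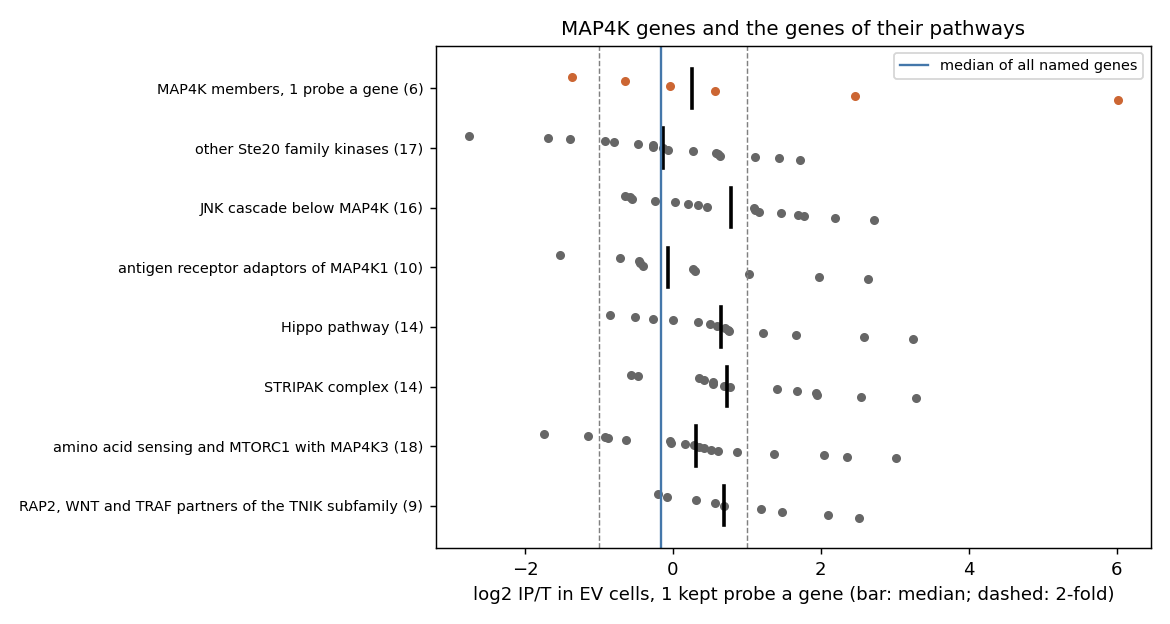
Log2 IP/T in EV cells (x axis) for the 6 MAP4K genes (orange) and the genes of 7 lists around them (grey; y axis, with the number of kept genes), each point being 1 gene at its brightest kept probe. Black bars are list medians, the blue line is the median of all named genes (-0.16) and dashed lines mark 2-fold; the point of MAP4K3, at 6.02, rests on a T signal not well above background and is bounded only at 4.62-fold or more, and the highest point of the lists is STRIP2 at 3.28.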

How the data were processed

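Each scanner file lists an intensity per spot, extracted by the authors, per the file headers, using Agilent Feature Extraction 10.7.3.1 (the submitters' processing notes name 10.5.1.1), which subtracts background and corrects for dye. The 8 deposited files are 4 arrays, each given under both of its labelled samples, of which the channel with that sample's dye was used. The deposited series table holds the authors' quantile-normalised log2 values for 22282 probes and served as an alternative. Following the study's methods, log2 processed signals were quantile normalised over the 8 channels (limma 3.58.1 in R 4.3.3), filtered as described, and averaged over Cy3 and Cy5. Left out here were control spots and spots flagged as outliers. Spots of a probe were averaged. Of 25830 probes that passed detection, 3358 were removed by the dye criterion. No spot was saturated. Precision is limited by the number of arrays.

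A group with no channel well above background has a bound only. It is the mean of the bright group over a floor for the dim group, which in each channel is the probe's signal or, if higher, the lowest signal well above background (5.09 to 7.16 on the log2 scale), after normexp with offset 50, loess and Aquantile. The files hold no mean signal column, so normexp used the median signal and the median background. Probe accessions were named through the RefSeq table of GRCh38.p14, which gave names only, the build of the array annotation being an older one, and named 69.5% of kept probes. Probe sequences and transcript sites were not used here.

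The members and the gene lists were chosen with earlier results of these data known. By the rule for named genes, the text gives every member probe, the 5 genes nearest to MAP4K3, and genes among the 3 highest and 2 lowest IP/T values of each list. The markers were written as lists too, and 1 marker and a split by subfamily are not reported here. The calculation was tested on simulated data. Tables were handled in Python 3.11.15 with pandas 2.3.3 and numpy 2.4.6. Alternatives covered the normalisation, the authors' values, both filters, single dyes and single orientations.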

Additional observations from a re-analysis of the deposited data

Results flagged for a closer look

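For MAP4K3 (A_23_P154130), T was higher in sponge cells in both dyes (0.63 and 0.92) while IP was lower in both (-0.16 and -0.06), so that the difference in IP less that in T was -0.89 on the log2 scale. The opposite directions in the fractions brought this result here. The difference was not tested, as each group holds 1 sample. After normexp and quantile normalisation the log2 IP/T values were 2.15 (EV) and 2.06 (sponge). Neither EV channel of T was well above background, and the second MAP4K3 probe, A_24_P285522, did not show it (log2 IP/T of 5.38 and 5.37).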

How the results depend on the processing

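MAP4K3 below is probe A_23_P154130. After normexp, loess and Aquantile its log2 IP/T was 2.25 in EV and 1.68 in sponge cells. Its sponge-minus-EV difference was then 0.31 in T and -0.26 in IP. The kept member probes with an IP/T of 2 or more were 1 and 1 (EV, sponge), and those with a T/IP of 2 or more 0 and 0. The probe counted for IP/T was A_24_P285522 in both populations, since A_23_P154130 failed the dye criterion on that scale. MINK1 with A_23_P164313 fell to 0.98 and MAP4K1 to -0.95 in EV cells. After normexp and quantile normalisation the MAP4K3 values were 2.15, 2.06, 0.054 and -0.036. The offset of 50 draws dim ratios towards 1 by construction. Without the dye filter, 5 probes in EV and 5 in sponge cells had an IP/T of 2 or more, since MAP4K3 A_24_P285522 and MAP4K5 A_32_P203219 re-entered.

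With a single dye, MAP4K3 in sponge cells ranged from 4.96 to 5.30, the probes with an IP/T of 2 or more in sponge cells from 3 to 6, and those changed 2-fold in T from 0 to 1. The arrays that carry IP in Cy3, taken alone, gave a sponge count of 6. The cause was not tested. Of the other comparisons of counts and of MAP4K3 with an alternative, 67 counts stayed within 1.5 times and 18 MAP4K3 values moved by less than their spread. Of the values of the other member probes, 288 moved by less than their spread and 64 by more, and no value past 2-fold changed sign. Over the 14 member probes, IP/T kept its sign under every alternative run for 11 in EV and 11 in sponge cells, the difference in IP for 8 and that in T for 6. Signal over background limits the MAP4K3 ratio in T. No paired analysis was possible because each group holds 1 RNA sample.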
